A study of Mus musculus with 5 samples.

Results

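The olfactory and vomeronasal receptor gene clusters are the stretches of the mouse genome in which the receptors for odours and pheromones lie side by side. Clusters were built from the positions of RefSeq protein-coding genes of GRCm38.p6 whose symbols begin with Olfr, Vmn1r or Vmn2r (or the newer Or names) on chromosomes 1 to 19. Each gene span was extended by 10 kb on both sides, and spans closer than 100 kb were merged. The rule used no measured value and gave 137 clusters with 1458 of 20665 protein-coding genes. Of these, 3 clusters with 4 genes (Vmn2r122, Vmn1r186, Vmn1r187 and Olfr100) have table positions before the first peak of their chromosome in all lists and were left out. The 134 clusters that remained hold 1454 genes, cover 44.9 Mb on 18 chromosomes (1.87% of the 2403 Mb compared) and have a median span of 146 kb. They hold 954 class II odorant receptors, 124 class I odorant receptors, 25 odorant receptors that the table's synonyms did not place in a class, 229 V1R and 122 V2R vomeronasal receptors. A further 91 protein-coding genes that are not receptors overlap the clusters, some of them across the outer border. Of the 134 clusters, 37 hold a single receptor gene.

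The libraries are chromatin immunoprecipitations of ATRX, a chromatin remodeller, from primary neurons of C57BL6/J mouse embryos at E15.5-17.5. Neurons were given lentivirus on day 5 in vitro. The libraries are TBC1D3 at day 14 in vitro (DIV14), MICAL1-M1 at DIV14, mCherry at DIV14, which is the control, and mCherry at DIV7. TBC1D3 is a gene found in hominoids and not in mice, MICAL1 is an enzyme that oxidises actin, and mCherry is a fluorescent protein; what M1 denotes is not given in the sources used here. Each group has 1 library, so the spread between cultures is unknown, no test between conditions was possible, and every interval is an exact 95% interval that covers counting error only. The deposited lists hold peaks, with no expression values, so neither the neuronal identity of the cultures nor the expression of the constructs was checked.

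An olfactory neuron expresses 1 allele of a single odorant receptor gene, while all other receptor genes are kept silent in heterochromatin. In that tissue the silent clusters carry the histone marks H3K9me3 and H4K20me3, and the choice of a receptor depends on enhancers bound by LHX2, EBF and LDB1. Class I odorant receptors are the older, fish-like family and are gathered on a single chromosome in the mouse, class II receptors are scattered over many. V1R genes are expressed in the apical layer and V2R genes in the basal layer of the vomeronasal organ, which detects pheromones. ATRX works with the chaperone DAXX to place histone H3.3 in heterochromatin and is known to bind H3K9me3-marked repeats and the zinc finger (Zfp) gene clusters. Cultured brain neurons are not a place where most of these receptors act.

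The start windows of 4 receptor genes are printed here, among them that of the 1 gene marked in all lists. Each window runs from 250 bases before to 50 bases after the RefSeq start (GRCm38.p6, printed 5′ to 3′ on the strand of the gene), and capitals mark CpG dinucleotides. Vmn2r29, a V2R gene (chr7:7278240-7278539, minus strand), was the only receptor gene whose ends had a summit within 1 kb in all 4 lists. Olfr16, the receptor MOR23 (chr1:172956518-172956817, plus strand), had one at mCherry DIV7 alone, and Olfr803 (chr10:129691990-129692289, minus strand), picked after its values were seen, at mCherry DIV14 alone. Olfr17, the receptor P2 of many axon guidance studies (chr7:107097217-107097516, plus strand), had none.
Vmn2r29: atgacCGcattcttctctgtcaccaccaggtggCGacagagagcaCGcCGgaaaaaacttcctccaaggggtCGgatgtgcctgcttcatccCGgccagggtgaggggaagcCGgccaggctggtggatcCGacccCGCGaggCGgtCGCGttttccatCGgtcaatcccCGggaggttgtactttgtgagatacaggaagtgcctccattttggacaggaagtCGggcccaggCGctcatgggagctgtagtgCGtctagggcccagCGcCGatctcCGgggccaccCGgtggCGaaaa
Olfr16: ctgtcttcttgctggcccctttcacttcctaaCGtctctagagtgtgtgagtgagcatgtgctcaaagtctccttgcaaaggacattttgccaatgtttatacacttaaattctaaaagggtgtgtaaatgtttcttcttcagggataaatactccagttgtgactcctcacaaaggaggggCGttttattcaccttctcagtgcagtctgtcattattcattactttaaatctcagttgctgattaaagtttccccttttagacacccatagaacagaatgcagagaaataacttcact
Olfr803: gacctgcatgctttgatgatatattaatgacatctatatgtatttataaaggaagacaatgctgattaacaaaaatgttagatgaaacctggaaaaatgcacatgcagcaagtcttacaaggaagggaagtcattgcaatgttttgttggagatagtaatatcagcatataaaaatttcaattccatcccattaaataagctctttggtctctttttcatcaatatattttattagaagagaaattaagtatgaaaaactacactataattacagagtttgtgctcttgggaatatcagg
Olfr17: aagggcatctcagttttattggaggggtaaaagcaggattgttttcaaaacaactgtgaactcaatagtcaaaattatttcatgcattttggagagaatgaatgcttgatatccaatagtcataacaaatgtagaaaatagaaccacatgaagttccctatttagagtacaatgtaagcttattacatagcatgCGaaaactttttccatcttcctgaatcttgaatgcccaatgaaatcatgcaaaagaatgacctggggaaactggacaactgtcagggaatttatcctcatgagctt
The window of Vmn2r29 holds 23 CpG and is 62.3% G and C. That of Olfr16 holds 2 CpG at 40% G and C, that of Olfr803 no CpG at 30.7%, and that of Olfr17 1 CpG at 35.7%. A RefSeq window was matched for 1260 of the 1454 receptor genes. Their median GC content was 35.7% with a median of 1 CpG, against 58% and 16 CpG over the windows of 15197 other genes. For 1001 receptor genes (68.8%) the model is shorter than 1200 bp and a multiple of 3 in length, so its start is a coding start and the promoter may lie elsewhere.

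ATRX summits were sparse in the receptor clusters in each of the 4 lists, and far sparser in some lists than in others. There were 1794 cluster summits in the TBC1D3 list and 375 in the MICAL1-M1 list. The control list had 150 and the mCherry DIV7 list 2733. Per Mb of cluster this was 39.97 (38.1 to 41.9) for TBC1D3, 8.35 (7.53 to 9.24) for MICAL1-M1, 3.34 (2.83 to 3.92) for the control and 60.9 (58.6 to 63.2) for mCherry DIV7. Because the lists differ in length, each density was also divided by the same list's average over chromosomes 1 to 19 (81.2 summits per Mb for TBC1D3, 58.3 for MICAL1-M1, 40.04 for the control and 86.3 for mCherry DIV7). This relative density, where 1 is the list's average, was 0.492 for TBC1D3, 0.143 for MICAL1-M1, 0.0835 for the control and 0.705 for mCherry DIV7. No pair of these values overlapped within counting error. The flanks of 500 kb on each side of the clusters, without any receptor gene, had relative densities of 0.788 for TBC1D3, 0.636 for MICAL1-M1, 0.675 for the control and 0.852 for mCherry DIV7. The cluster density divided by the flank density was thus 0.625 (0.592 to 0.660) for TBC1D3, 0.226 (0.202 to 0.251) for MICAL1-M1, 0.124 (0.104 to 0.146) for the control and 0.828 (0.791 to 0.867) for mCherry DIV7.

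Facts of the lists bear on all of these values. The lists hold 199059 peaks for TBC1D3, 141387 for MICAL1-M1, 96670 for the control and 213982 for mCherry DIV7. All reach up to an uncorrected p of 0.05. Peaks whose q-value was at most 0.05 made up 0.205% of the TBC1D3 list, 0.463% of the MICAL1-M1 list, 4.19% of the control list and 0.236% of the mCherry DIV7 list. The genome background recovered from fold and p, a measure of depth, was 1.22 fragments for TBC1D3, 2.61 for MICAL1-M1, 3.56 for the control and 1.28 for mCherry DIV7. The shallow lists are the ones with the higher cluster density, so depth and condition cannot be told apart here. Peak names in the list labelled MICAL1-M1 carry the tag M2.

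The density fell in part before the borders of the clusters and stepped down further at them. Among the 53 clusters of 200 kb or more, the first 100 kb inside the border had a relative density of 0.490 for TBC1D3, 0.167 for MICAL1-M1, 0.0872 for the control and 0.665 for mCherry DIV7. In the last 100 kb outside it, the values were 0.652 for TBC1D3, 0.396 for MICAL1-M1, 0.461 for the control and 0.760 for mCherry DIV7. From 400 to 500 kb outside it, they were 0.838 for TBC1D3, 0.682 for MICAL1-M1, 0.690 for the control and 0.869 for mCherry DIV7, above the last 100 kb outside with separate intervals for TBC1D3, MICAL1-M1 and the control. Across the border, the value inside was lower in all 4 lists, and the step was widest for the control (0.0614 to 0.120 inside, 0.398 to 0.532 outside). For mCherry DIV7 the intervals of both bins met (0.613 to 0.720 inside, 0.704 to 0.820 outside). Farther in, from 400 to 500 kb, the relative density was 0.493 for TBC1D3, 0.105 for MICAL1-M1, 0.0416 for the control, from 3 summits in 1.8 Mb, and 0.766 for mCherry DIV7. Only the longest clusters reach that far, with 18 cluster sides against 106 in the first 100 kb inside.

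**Figure D1:**
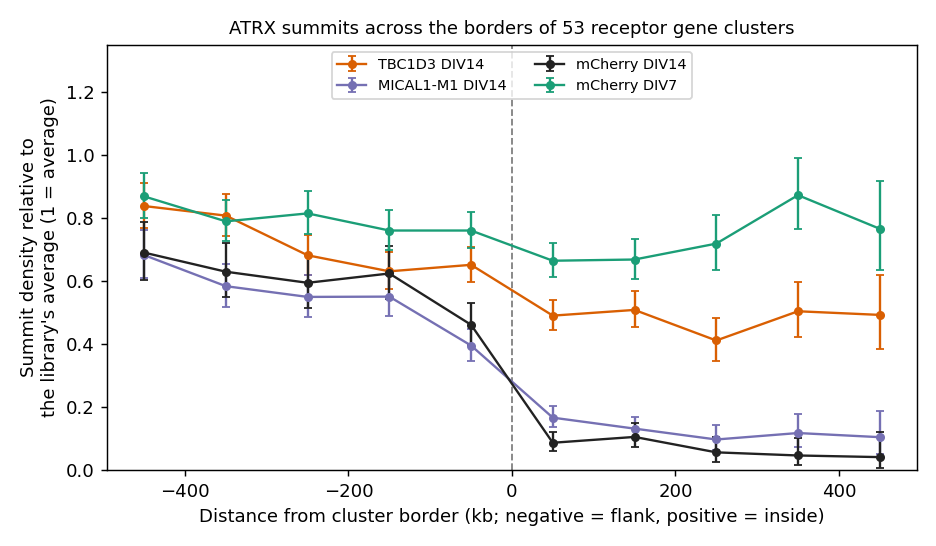
ATRX summit density in bins of 100 kb (vertical axis, relative to each list's average) against distance from the cluster border in kb, flank on the left and cluster on the right, for 53 clusters of 200 kb or more; bars are exact 95% intervals of counting. The control and MICAL1-M1 fall to 0.0872 and 0.167 just inside the border, TBC1D3 to 0.490, and mCherry DIV7 to 0.665. Fewer clusters reach the inner bins, with 106 cluster sides in the first 100 kb inside and 18 from 400 to 500 kb.

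Between the libraries, the clusters moved more than the other regions measured. The relative cluster density of TBC1D3 was 5.90 times that of the control (4.99 to 7.02), while the flanks were at 1.17 times (1.11 to 1.23). MICAL1-M1 was at 1.72 times the control (1.42 to 2.09) in clusters and at 0.942 times (0.891 to 0.996) in flanks. The control at DIV14 was at 0.118 times mCherry DIV7 (0.0997 to 0.139) in clusters and at 0.792 times (0.754 to 0.832) in flanks. These comparisons share the control library. The 17 clusters of at least 5 Zfp genes had ratios of 1.73 for TBC1D3 over the control, 1.04 for MICAL1-M1 over the control and 0.629 for the control over mCherry DIV7. The 246 gaps of 1 Mb or more between protein-coding genes had 1.45 for TBC1D3 over the control, 1.28 for MICAL1-M1 over the control and 0.644 for the control over mCherry DIV7. Both kinds of region moved in the same direction as the receptor clusters, by less, and for MICAL1-M1 the interval of the Zfp clusters spanned 1 (0.845 to 1.29). Lists cut to an equal length of 96230 peaks, strongest first, gave, for the receptor clusters, 5.19 for TBC1D3 over the control, 1.4 for MICAL1-M1 over the control and 0.144 for the control over mCherry DIV7.

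The pattern held for the 4 receptor kinds, with 1 exception at MICAL1-M1. The 3 class I clusters had relative densities of 0.633 for TBC1D3, 0.164 for MICAL1-M1, 0.0621 for the control and 0.739 for mCherry DIV7. The 67 class II clusters had 0.582 for TBC1D3, 0.181 for MICAL1-M1, 0.101 for the control and 0.696 for mCherry DIV7. The class I and class II values overlapped within counting error in each list. The 29 V1R clusters had 0.357 for TBC1D3, 0.0527 for MICAL1-M1, 0.0540 for the control and 0.829 for mCherry DIV7. The 35 V2R clusters had 0.291 for TBC1D3, 0.110 for MICAL1-M1, 0.0636 for the control and 0.581 for mCherry DIV7. TBC1D3 was thus higher than the control by 10.2 times (4.55 to 28.3) in class I, 5.77 times (4.73 to 7.10) in class II, 6.62 times (4.15 to 11.2) in V1R and 4.57 times (2.84 to 7.77) in V2R clusters. MICAL1-M1 over the control was 2.63 (1.04 to 7.91) in class I and 1.80 (1.43 to 2.27) in class II clusters. It was 1.74 (1.002 to 3.13) in V2R clusters and 0.977 (0.523 to 1.86) in V1R clusters, where the interval spans 1. In V1R clusters mCherry DIV7 had 1.03 times the density of the flanks (0.928 to 1.13), so no depletion against the flanks was detectable there. The same holds for the class I clusters, at 0.917 (0.689 to 1.22) for TBC1D3 and 0.804 (0.628 to 1.03) for mCherry DIV7. It also holds for the 37 single-gene clusters, at 0.861 (0.651 to 1.12) for TBC1D3 and 0.948 (0.750 to 1.18) for mCherry DIV7. Their ratios were 0.407 (0.232 to 0.664) for MICAL1-M1 and 0.185 (0.0599 to 0.434) for the control. Clusters of 2 to 9 genes and of 10 or more had intervals below 1 in all 4 lists. The Zfp clusters had 1.31 times the density of their flanks for TBC1D3, 1.20 for MICAL1-M1, 0.990 for the control and 1.16 for mCherry DIV7.

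**Figure D2:**
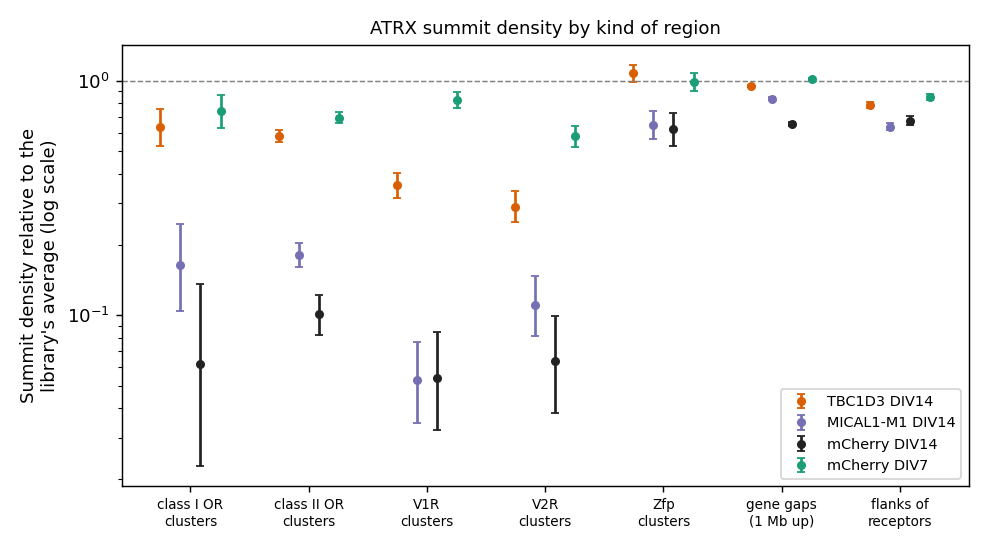
Relative ATRX summit density (log scale, 1 is the list's average, dashed) in clusters of each receptor kind, in Zfp clusters, in gene gaps of 1 Mb or more and in the flanks of receptor clusters; points are libraries and bars exact 95% intervals of counting. The control lies between 0.0540 and 0.101 in the receptor clusters and at 0.621 in Zfp clusters and 0.655 in gene gaps.

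Cluster by cluster, the control's ratio was low at every cluster that could be compared, and that of the shallow lists at some of them. A cluster of 200 kb or more was called lower where its density was at least 1.5-fold below that of its own flanks. For TBC1D3 28 of 53 clusters were lower, where 5.02% of 1 Mb tiles without receptor genes were. For MICAL1-M1 46 of the 49 clusters with a summit in their flanks were lower (16.3% of tiles), and for the control 46 of the 46 with such a summit (24.3% of tiles). The call uses the ratio alone, and some of the control's intervals span 1. Examples are Olfr24 to Olfr855 (0, up to 3.80, from 2 flank summits) and Olfr693 to Olfr716 (0.509, 0.0103 to 5.15, from 4 flank summits). For mCherry DIV7 15 of 53 were lower (2.82% of tiles). Clusters at least 1.5-fold higher than their flanks numbered 4 for TBC1D3 (4.45% of tiles), 1 for MICAL1-M1 (14.2%), 0 for the control (20.5%) and 4 for mCherry DIV7 (3.22%). The tiles are all 1 Mb long and the clusters vary in length, so short clusters with few summits reach the threshold more readily than tiles do.

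Many clusters held no summit at all in the control. Of the 53 clusters, 14 were empty for MICAL1-M1 and 25 for the control, and none for TBC1D3 or mCherry DIV7. The flanks held no summit at 4 of the 53 for MICAL1-M1 and at 7 for the control. Some empty clusters thus lie in stretches whose flanks are empty too, as Vmn1r137 to Vmn1r260 does in the control. The 25 clusters that the control left empty hold 371 receptor genes in 14.3 Mb, and there the TBC1D3 list had 331 summits, the MICAL1-M1 list 30 and the mCherry DIV7 list 849. In the other 28 clusters the relative density of TBC1D3 was at least 1.5-fold above that of the control in all 28, where 27.9% of tiles were. MICAL1-M1 was at least 1.5-fold above the control in 15 of the 28 (14.8% of tiles) and at least 1.5-fold below it in 3 (3.02% of tiles). The control at DIV14 was at least 1.5-fold below mCherry DIV7 in 53 of 53 clusters (29.5% of tiles). Over the 53 clusters the relative densities of the lists ranked clusters alike to a degree that differed between pairs: Spearman's rho was 0.805 for TBC1D3 with MICAL1-M1, 0.636 for TBC1D3 with the control, 0.667 for TBC1D3 with mCherry DIV7, 0.717 for MICAL1-M1 with the control, 0.589 for MICAL1-M1 with mCherry DIV7 and 0.340 for the control with mCherry DIV7. These coefficients describe 53 clusters that share their sequence content and, within a list, their library.

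**Figure D3:**
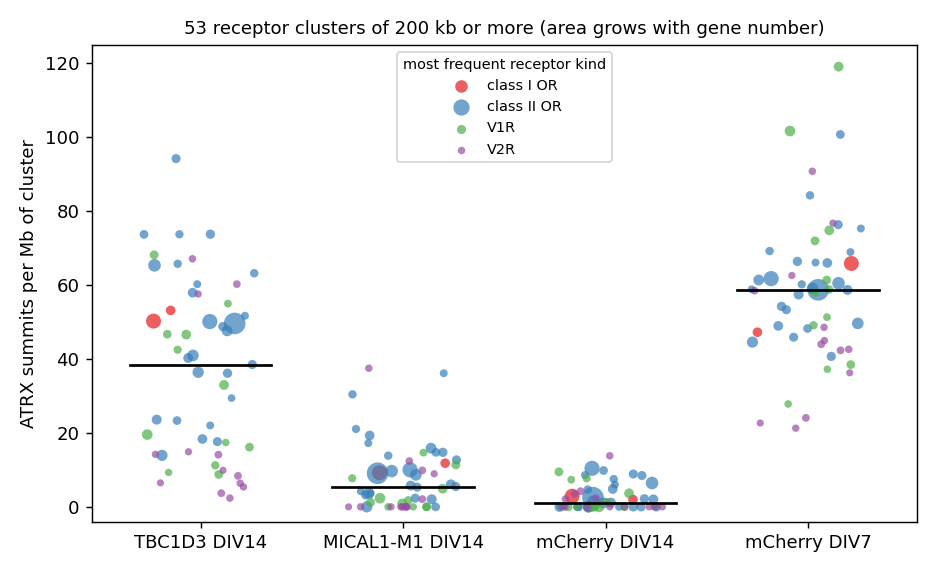
ATRX summits per Mb (vertical axis) in each of 53 receptor clusters of 200 kb or more, by library; each point is a cluster, its area grows with the number of receptor genes, its colour gives the most frequent receptor kind, and black lines are medians. The control's points lie near 0, with 25 clusters at 0, while none of the TBC1D3 and mCherry DIV7 points is at 0.

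The 10 clusters with the most genes hold 689 receptor genes in 16.965 Mb, and the control was below the flanks in all 10. At Vmn1r91 to Vmn1r129 the interval of the control's ratio spanned 1 (0 to 1.46). The largest, Olfr996 to Olfr1274 (chr2:85569215-90411674), has 216 receptor genes, mostly class II. It had 240 summits for TBC1D3, 44 for MICAL1-M1, 12 for the control and 284 for mCherry DIV7. Per Mb this was 49.6 for TBC1D3, 9.09 for MICAL1-M1, 2.48 for the control and 58.6 for mCherry DIV7. The control's value there was 0.0470 of its flanks. The next, Olfr160 to Olfr986 (chr9:37701348-40198094, 95 genes), had 50.1 summits per Mb for TBC1D3, 10.01 for MICAL1-M1, 10.4 for the control and 61.7 for mCherry DIV7. In this cluster MICAL1-M1 was not above the control, and the control's density was the highest among the 10. The main class I cluster, Olfr543 to Olfr649 (chr7:102466773-104200205, 91 genes), had 50.2 per Mb for TBC1D3, 9.23 for MICAL1-M1, 2.88 for the control and 65.8 for mCherry DIV7. TBC1D3 and mCherry DIV7 were close to their flanks there, at ratios of 0.881 and 0.990, while MICAL1-M1 and the control were at 0.370 and 0.270. In the cluster Olfr1444 to Olfr1505 (chr19:12851777-13929972, 41 genes), MICAL1-M1 and the control had no summit, where 3 summits would make 2.78 per Mb. This cluster had 13.9 summits per Mb for TBC1D3 and 44.5 for mCherry DIV7. It was the lowest of the 10 for TBC1D3 and for mCherry DIV7. Over the 10 clusters the range was 13.9 to 65.3 per Mb for TBC1D3, 0 to 15.9 for MICAL1-M1, 0 to 10.4 for the control and 44.5 to 102 for mCherry DIV7. The highest mCherry DIV7 value belongs to Vmn1r91 to Vmn1r129 on chromosome 7, a cluster of 35 V1R genes.

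The highest cluster to flank ratios were mostly those of vomeronasal clusters with few summits. Vmn2r40 to Vmn2r37 (chr7:8897734-9233653, 4 V2R genes) had the highest cluster to flank ratio for TBC1D3 (2.68, 0.616 to 11.6, from 5 summits), for MICAL1-M1 (8.03, 0.644 to 421, from 3), and also for mCherry DIV7 (2.96, 1.51 to 5.82, from 21). Its flanks were sparse, with 5.56 summits per Mb in the TBC1D3 list, 1.11 in the MICAL1-M1 list and 21.1 in the mCherry DIV7 list. The lowest TBC1D3 ratio was 0.0801 (0.00195 to 0.489) at Vmn2r124 to Vmn2r95 (chr17:18039484-18462324, 6 genes), with 1 summit. The lowest mCherry DIV7 ratio was 0.265 (0.103 to 0.572) at Vmn2r59 to Vmn2r61 (chr7:42001792-42310755, 3 genes), with 7 summits. In the control the highest ratio was 0.656 (0.234 to 1.62), at Vmn2r1 to Vmn2r6 (chr3:64068172-64575434). These 6 genes are of the V2R family that is expressed alongside other V2Rs in basal vomeronasal neurons, and their cluster had 67.0 summits per Mb for TBC1D3, 37.5 for MICAL1-M1, 13.8 for the control and 90.7 for mCherry DIV7. All 4 of these densities were above the cluster average of the same list.

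Inside the clusters, the receptor genes themselves were not favoured over the DNA between them. Within 1 kb of a receptor gene end there were 36.2 summits per Mb (30.9 to 42.1) for TBC1D3, 5.85 (3.86 to 8.51) for MICAL1-M1, 2.82 (1.5 to 4.82) for the control and 55.7 (49.1 to 62.9) for mCherry DIV7. Between annotated genes the densities were 40.7 (38.5 to 42.9) for TBC1D3, 8.40 (7.45 to 9.44) for MICAL1-M1, 3.01 (2.45 to 3.66) for the control and 62.4 (59.8 to 65.1) for mCherry DIV7. The receptor gene ends had the lower value in all 4 lists, with intervals that overlap. In the rest of the receptor gene spans the densities were 27.5 (22.6 to 33.2) for TBC1D3, 5.09 (3.11 to 7.86) for MICAL1-M1, 1.78 (0.716 to 3.67) for the control and 45.1 (38.7 to 52.2) for mCherry DIV7. These were below the space between genes, with separate intervals for TBC1D3 and mCherry DIV7. The parts were not matched for receptor kind. The 1001 receptor models shorter than 1200 bp fall wholly within 1 kb of their ends, so only longer genes, such as V2R genes, remain here. V2R clusters as a whole had 23.6 summits per Mb for TBC1D3 and 50.1 for mCherry DIV7, against 47.3 and 60.1 in class II clusters. Gene span and receptor kind cannot be told apart in this comparison. The few genes that are not receptors stood out in the control: 13 of its 150 cluster summits lay within 1 kb of their ends, which make up 0.668% of the territory. There the density was 66.7 per Mb (40.7 to 103) for TBC1D3, 53.3 (30.5 to 86.6) for MICAL1-M1, 43.3 (23.1 to 74.1) for the control and 93.3 (62.0 to 135) for mCherry DIV7. Around non-receptor gene ends outside the clusters it was 112 per Mb for TBC1D3, 130 for MICAL1-M1, 137 for the control and 108 for mCherry DIV7. Gene ends inside the clusters were thus lower than those outside for TBC1D3, MICAL1-M1 and the control, while for mCherry DIV7 the interval inside held the value outside.

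**Figure D4:**
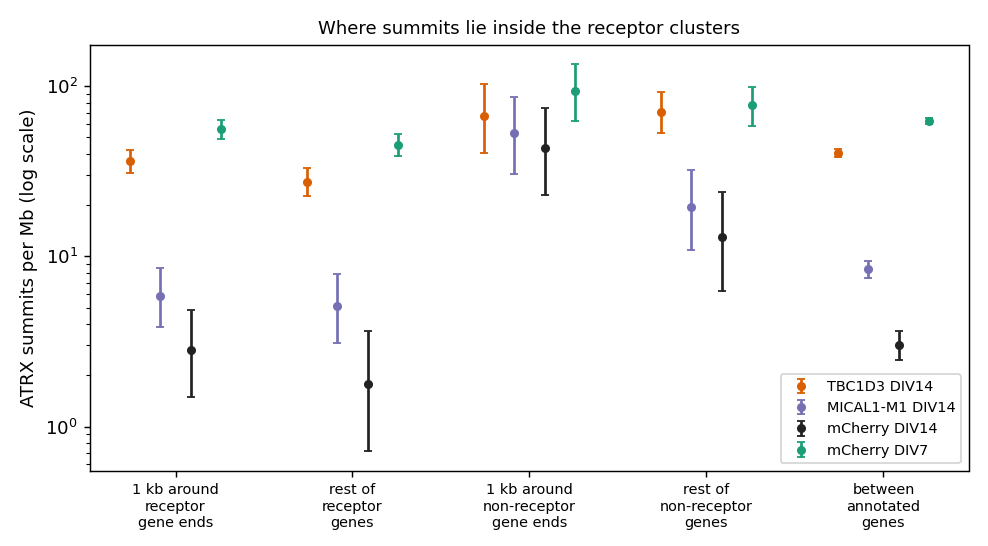
ATRX summits per Mb (log scale) in 5 parts of the receptor clusters, by library, with exact 95% intervals of counting. In the control, non-receptor gene ends reach 43.3 per Mb while receptor gene ends (2.82) and the space between genes (3.01) lie together; for mCherry DIV7 all parts lie between 45.1 and 93.3.

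Counted by gene, summits within 1 kb of either gene end marked 155 of 1454 receptor genes for TBC1D3 (10.7%), where 34.9% of all protein-coding genes were marked. For MICAL1-M1 the count was 28 (1.93%, against 40.6% of all genes), for the control 14 (0.963%, against 44.5%) and for mCherry DIV7 241 (16.6%, against 34.5%). In lists of equal length the counts were 67 for TBC1D3, 14 for MICAL1-M1, 14 for the control and 105 for mCherry DIV7, so MICAL1-M1 was then not above the control. In the full lists the receptor genes and all genes ran in opposite orders, since the control marked the most genes in general and the fewest receptor genes. The median distance of a receptor gene to the nearest summit was 8.32 kb for TBC1D3, 53.6 kb for MICAL1-M1, 130 kb for the control and 5.29 kb for mCherry DIV7. By kind, the control marked 1 of 124 class I genes, 9 of 954 class II, 3 of 229 V1R and 1 of 122 V2R genes. At mCherry DIV7 the shares were 16.1% of class I, 16.2% of class II, 17.5% of V1R and 16.4% of V2R genes, which overlap within counting error.

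Which receptor genes were marked differed from list to list. Receptor genes marked for TBC1D3 and not for the control numbered 152 (16% of all protein-coding genes were), those marked for the control alone 11 (25.6% of all genes) and those marked in both 3. For MICAL1-M1 the counts were 26 (12% of all genes) for MICAL1-M1 alone, 12 (15.9%) for the control alone and 2 in both. Between the mCherry lists, age and time since the lentivirus of day 5 differ together and cannot be told apart. The counts there were 11 (25.9%) for mCherry DIV14 alone, 238 (15.9%) for mCherry DIV7 alone and 3 in both. In all, 1060 receptor genes were marked in no list (24.3% of all protein-coding genes were) and 354 in 1 (27.3% of all genes). Another 37 were marked in 2 lists (24.8%), 2 in 3 (17.1%) and 1 in all 4 (6.61%). Of the 37, 27 were shared by TBC1D3 and mCherry DIV7 (3.43% of all genes), the lists that mark the most receptor genes.

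Vmn2r29 was the gene marked in all 4 lists. Its peaks covered the start of the gene near chr7:7278289 with the authors' folds of 1.93 for TBC1D3, 1.62 for MICAL1-M1, 1.97 for the control and 2.98 for mCherry DIV7, and the last of these had a q of 0.0368. Its start window, printed above, has the most CpG of the 1260 receptor windows, and only 2 of these windows reach 60% G and C. The other, that of Olfr212, had no summit within 1 kb of its start in any list. Vmn1r4 was marked for TBC1D3, MICAL1-M1 and the control, and in MICAL1-M1 and the control its summit lay within 1 kb of an end of the neighbouring gene Nt5c3 too. Olfr211, a class II receptor, was marked for TBC1D3 (fold 2.26), the control (2.63) and mCherry DIV7 (2.19). In each of these lists Olfr211's summit lay at a different position, between chr6:116494132-116495392.

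Among receptors with a history in the field, 19 of 22 symbols were found as protein-coding genes, and the control marked none of them at a gene end. Summits marked 2 of the 19 for TBC1D3 (Vmn2r2 and Vmn2r5), 2 for MICAL1-M1 (Vmn2r4 and Vmn2r5) and 4 for mCherry DIV7 (Olfr16, Olfr157, Olfr1507 and Vmn2r4). With 10.7% of all receptor genes marked for TBC1D3, 1.93% for MICAL1-M1, 0.963% for the control and 16.6% for mCherry DIV7, these counts are too few to set the well-studied genes apart from the rest. Olfr1507, the receptor MOR28 beside the H enhancer on chromosome 14, had its nearest summit at 7.33 kb for TBC1D3, 115 kb for MICAL1-M1, 173 kb for the control and 0.407 kb for mCherry DIV7. Olfr17 (P2) had it at 5.27 kb for TBC1D3, 88.9 kb for MICAL1-M1, 142 kb for the control and 4.38 kb for mCherry DIV7. Olfr160 (M72), which lies in the cluster richest in control summits among the largest 10, had it at 16.8 kb for TBC1D3, 21.1 kb for MICAL1-M1, 30.9 kb for the control and 8.22 kb for mCherry DIV7. The control's nearest summit was the farthest of the 4 lists in 13 of the 19 genes. In 5 it was nearer than that of MICAL1-M1, as at Olfr157, of the OR37 group, with 2.97 kb for TBC1D3, 37.8 kb for MICAL1-M1, 1.87 kb for the control and 0 kb for mCherry DIV7. Vmn1r49, a V1R pheromone receptor, had it at 8.43 kb for TBC1D3, 55.3 kb for MICAL1-M1, 288 kb for the control and 2.63 kb for mCherry DIV7.

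The few cluster peaks that passed a q of 0.05 lay at different places in the control and at DIV7. There was 1 such peak for TBC1D3, 7.74 kb from Olfr461 on chromosome 6, with a fold of 4.59. MICAL1-M1 had 1, inside the overlapping spans of Vmn2r1 and Vmn2r2, with a fold of 3.88. The control had 7, and all of these were at genes that are not receptors: Ilvbl, 2610008E11Rik, Zfp62, Mgat1, Trim68 and a pair in Clcn4, a chloride and proton exchanger. The mCherry DIV7 list had 8, among them those in the overlapping spans of Vmn2r1 and Vmn2r2 and inside Vmn2r29. The others lay between 2.68 and 30.6 kb from Olfr1272, Vmn1r2, Vmn2r129, Vmn2r11, Vmn1r77 and Vmn1r158. Only 2 of the control's cluster peaks were overlapped in all 3 other lists, that of Vmn2r29 and one in Clcn4. The Clcn4 peak had folds of 2.23 for TBC1D3, 2.12 for MICAL1-M1, 3.72 for the control and 3.07 for mCherry DIV7. Of the 91 non-receptor genes that overlap clusters, gene ends were marked in 18 for TBC1D3 (19.8%, against 37.2% of non-receptor genes outside clusters and flanks). The counts were 19 for MICAL1-M1 (20.9%, against 44.1%), 14 for the control (15.4%, against 48.6%) and 26 for mCherry DIV7 (28.6%, against 36.4%).

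Most cluster peaks were found in a single list. Peaks of the control overlapped 1.06% of the TBC1D3 cluster peaks, against 6.12% of the TBC1D3 flank peaks. They overlapped 6.67% of the MICAL1-M1 cluster peaks, against 22.2% in flanks, and 0.402% of the mCherry DIV7 cluster peaks, against 4.85% in flanks. In the other direction, 12% of the control's 150 cluster peaks were overlapped by TBC1D3 peaks (14.2% in flanks), 16% by MICAL1-M1 peaks (29.6% in flanks) and 7.33% by mCherry DIV7 peaks (12.9% in flanks). The share of TBC1D3 cluster peaks overlapped by mCherry DIV7 peaks was 6.91% (9.05% in flanks), and the share of mCherry DIV7 cluster peaks overlapped by TBC1D3 peaks was 4.57% (7.89% in flanks). With overlap of at least 1 bp these shares depend on the number and width of peaks in the list set against them.

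Receptor gene starts were also compared with other gene starts of like GC content. For 1001 of the 1454 receptor genes the start is a coding start. Their windows, and the motifs in them, may thus not be those of promoters, and positions were not matched between the sets. With 35 to 40% G and C in the start window, 5.94% of 438 receptor genes and 13.3% of 467 other genes had a summit within 1 kb of the start for TBC1D3. For MICAL1-M1 these shares were 1.14% and 11.3%, for the control 0.457% and 8.99%, and for mCherry DIV7 11.9% and 14.3%. With 40 to 45% G and C the control had 0.529% of 189 receptor genes and 14.9% of 1081 others, and mCherry DIV7 had 16.4% and 16.5%. Receptor starts were thus below other starts for the control and MICAL1-M1 in both bins, with intervals that do not overlap. For mCherry DIV7 the intervals overlapped in both. For TBC1D3 they were separate at 35 to 40% and overlapped at 40 to 45%. At 30 to 35%, with 390 receptor and 120 other genes, they were separate for the control and overlapped for MICAL1-M1. Below 30%, with only 26 other genes, they overlapped for both of these lists. Of 2 motifs searched, each of which reads the same on both strands, TAATTA, the core bound by LHX2 and other homeodomain proteins, was in 16.7% of receptor windows and 3.61% of others. The EBF motif, TCCC and GGGA with any 2 bases between them, was in 0.397% of receptor windows, 5 in all, and in 1.01% of others. These motif shares were not matched for GC content, whose median was 35.7% in receptor windows and 58% in others. An excess or lack of either motif beyond base composition was not tested. The windows printed above for Vmn2r29, Olfr16 and Olfr17 hold neither motif, and that of Olfr803 holds TAATTA.

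**Figure D5:**
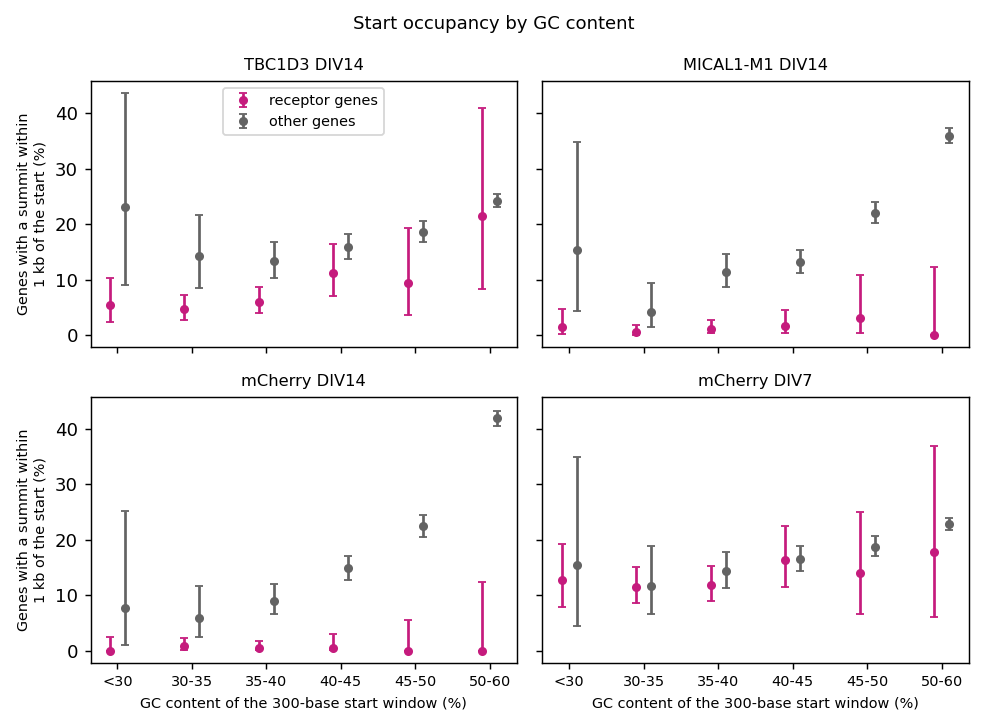
Share of genes with an ATRX summit within 1 kb of the start (vertical axis, %) by GC content of the 300-base start window (horizontal axis), for receptor genes and other genes in each library; bars are exact 95% binomial intervals. In the control the receptor genes stay between 0% and 0.769% while other genes climb to 41.9%; for mCherry DIV7 the intervals of both sets overlap in each bin plotted. Windows of 60% GC or more, with only 2 receptor genes, are not plotted. Most receptor starts are coding starts, so their promoters may lie elsewhere.

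The genes of odour and pheromone signalling and of receptor choice that were listed lie outside the clusters. Of 13 olfactory transduction genes, among them the G protein, cyclase and channel subunits of odour signalling, 5 were marked for TBC1D3, 6 for MICAL1-M1, 5 for the control and 5 for mCherry DIV7. Of the 3 vomeronasal transduction genes, Trpc2, Gnai2 and Gnao1, none was marked for TBC1D3 and 2 for each of the other libraries. Of 15 genes tied to receptor choice, among them Lhx2, Ldb1, Ebf1 and the histone demethylase Kdm1a, 7 were marked for TBC1D3, 10 for MICAL1-M1, 9 for the control and 6 for mCherry DIV7. Other chemoreceptor families lie mostly outside the clusters too. Of 15 Taar trace amine receptors 3 were marked for TBC1D3, 2 for MICAL1-M1, 0 for the control and 2 for mCherry DIV7. Of 35 Tas2r bitter taste receptors 6 were marked for TBC1D3, 1 for MICAL1-M1, 0 for the control and 3 for mCherry DIV7. Of 3 Tas1r taste receptors 1 was marked for TBC1D3 and 1 for the control, and of 7 Fpr formyl peptide receptors, 1 of which lies in a cluster, 2 for TBC1D3, with 0 in the other lists of each family. Of 12 H2-M genes, 2 of which lie in clusters and some of which are expressed with V2R receptors, 4 were marked for TBC1D3, none for MICAL1-M1 and 1 each for the control and mCherry DIV7. The share of all protein-coding genes marked was 34.9% for TBC1D3, 40.6% for MICAL1-M1, 44.5% for the control and 34.5% for mCherry DIV7. The Taar and Tas2r counts lie below these shares in all 4 lists, while those of the smaller families rest on few genes, with Tas1r and H2-M at 33.3% for TBC1D3.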

How the data were processed

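The data are peak lists from ATRX ChIP-seq of mouse neurons, 1 library in each of 4 groups; the input sample was not analysed here. The tools, per the submitters' processing notes, were ChIPseeker 1.26.2, MACS 1.4.2, SAMtools 1.9 and Bowtie 1.3.0. What each did, the genome build and the handling of reads that match several paralogues are not given in the sources used. The deposited lists have 10 columns in the narrowPeak layout, which MACS 1.4.2 does not write, so the caller is uncertain. The authors' score per peak is 10 times its −log10 p cut to a whole number. The deposited fold is a ratio of pileup to local background, used within a list only. The deposited −log10 values are those of the p-value and the q-value. Summit positions are the start plus the deposited offset in bp. The lists belong to single libraries, not to pooled samples.

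Summits were counted in Python 3.11.15 (NumPy 2.4.6, pandas 2.3.3, SciPy 1.17.1) in clusters, flanks of 500 kb, Zfp clusters, gene gaps and 1 Mb tiles, over the range that peaks cover on chromosomes 1 to 19. Gene positions and start windows are those of RefSeq, GRCm38.p6; odorant receptors were classed by the MOR family number of their synonyms. Poisson and binomial intervals at 95% are exact and cover counting error only. A ratio of densities has an exact conditional binomial interval. Read totals were not analysed here; depth was read from fold and p of each peak, which gave a whole pileup and Poisson background within 0.001 in log10 p for at least 99.9% of rows. The counting was tested on simulated data. No genome was used, so mappability and GC content of the clusters were not measured and their part in the results was not tested.

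Named in the text are the 10 clusters with most genes, clusters of 200 kb or more at the ends of the cluster to flank order, receptor genes near peaks with a q of at most 0.05, genes marked in several lists and a list of 22 well-studied receptors. Members and lists were chosen with earlier results of these data known. The alternatives were stricter peaks, lists of equal length, other flank, merging, extension and window lengths, counting peaks by any base, a stricter overlap, leaving out the largest cluster and, added after the data were seen, leaving out 3 kb around gene ends.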

Additional observations from a re-analysis of the deposited data

Results flagged for a closer look

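The cluster Vmn1r91 to Vmn1r129 (chr7:20091158-21371291, 35 V1R genes) drew attention because its density lay on opposite sides of its flanks in different libraries. The cluster to flank ratio was 0.408 (0.235 to 0.696) for TBC1D3 from 25 summits and 0.165 (0.0295 to 0.623) for MICAL1-M1 from 3. It was 0 (0 to 1.46) for the control from 0 summits and 1.60 (1.14 to 2.27) for mCherry DIV7 from 130. The control's interval spans 1, with 3 summits in the flanks. The difference was not tested, since each group has 1 library. The neighbouring V1R cluster, Vmn1r137 to Vmn1r260 (chr7:21984587-23077456, 26 genes), had ratios above 1 in both shallow lists, 1.75 (0.887 to 3.68) for TBC1D3 from 36 summits and 2.29 (1.55 to 3.47) for mCherry DIV7 from 130 summits. MICAL1-M1 had 1 summit there and 2 in the flanks, and the control had 0 in both. How reads that match several V1R paralogues were placed was not tested.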

How the results depend on the processing

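Of 88 values under alternative settings, 52 stayed within the counting interval or 1.5 times the count, 35 moved beyond it and 1 turned its direction. The cluster to flank ratio stayed below 1 in every setting run. With a q of at most 0.05 it was 0.0997 for TBC1D3, 0.0944 for MICAL1-M1, 0.0718 for the control and 0.755 for mCherry DIV7. These rest on 1 summit each for TBC1D3 and MICAL1-M1, 7 for the control and 8 for mCherry DIV7. For mCherry DIV7 the interval of this ratio spans 1 (0.286 to 1.81). With p of at most 0.01 it was 0.181 for MICAL1-M1, 0.103 for the control and 0.774 for mCherry DIV7. Lists of equal length gave 0.183 for MICAL1-M1 and 0.756 for mCherry DIV7. Flanks of 1000 kb gave 0.585 for TBC1D3 and 0.200 for MICAL1-M1, and flanks of 200 kb gave 0.681 in the TBC1D3 list, 0.261 in the MICAL1-M1 list and 0.872 in the mCherry DIV7 list. Without 3 kb around gene ends the ratio was 0.684 for TBC1D3, 0.267 for MICAL1-M1, 0.147 for the control and 0.880 for mCherry DIV7.

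Between libraries, the peaks with a q of at most 0.05 gave 1.94 (0.0431 to 15.1) for TBC1D3 over the control. For MICAL1-M1 over the control they gave 0.934 (0.0207 to 7.27), the turned direction, from 1 summit against 7. Both intervals span 1, so these counts settle neither direction. The control over mCherry DIV7 was at 0.0836 (0.0258 to 0.264). Lists of equal length gave 1.4 for MICAL1-M1 over the control and 0.144 for the control over mCherry DIV7. Receptor genes marked within 3 kb numbered 321 for TBC1D3, 74 for MICAL1-M1, 34 for the control and 476 for mCherry DIV7. With p of at most 0.01 they numbered 102 for TBC1D3, 12 for MICAL1-M1, 7 for the control and 82 for mCherry DIV7 from lists of 130571, 78267, 64582 and 72238 peaks. In lists of equal length they numbered 67 for TBC1D3, 14 each for MICAL1-M1 and the control and 105 for mCherry DIV7. With overlap of at least 50% of the shorter peak, 0.557% of TBC1D3 cluster peaks were shared with the control and 6.67% of the control's with TBC1D3. The cause of these moves was not tested. No paired analysis was possible because each group has 1 library.

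Depth, list length and condition move together here, with 1 library per group. All but 1 of the TBC1D3 cluster peaks and all but 8 of the mCherry DIV7 cluster peaks have a q above 0.05. Reads lost from near-identical receptor genes cannot be told apart from a lack of ATRX.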

Other observations

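Receptor clusters with dense flanks tended to be denser themselves in the DIV14 lists. Over 53 clusters of 200 kb or more, Spearman's rho between cluster and flank density was 0.686 for TBC1D3, 0.602 for MICAL1-M1, 0.522 for the control and 0.150 for mCherry DIV7. Clusters with more receptor genes per Mb were denser too, with a rho of 0.557 for TBC1D3, 0.497 for MICAL1-M1, 0.299 for the control and 0.448 for mCherry DIV7. These coefficients describe clusters that share a library and a part of their sequence. Inside the clusters, the spans of receptor pseudogenes that lie apart from protein-coding genes held 21 summits for TBC1D3, 3 for MICAL1-M1, 0 for the control and 29 for mCherry DIV7 in 0.600 Mb.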
